A study of Homo sapiens with 24 samples.

Results

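The 9 genes described here encode transcription factors of the hepatocyte: HNF4A, ONECUT1, FOXA1, FOXA2, FOXA3, CEBPA, NR1H4, NR1I2 and NR1I3. They were found on the arrays through the RefSeq transcript each probe is named for, and they are 9 of the 20503 genes that could be given a symbol and of the 24643 genes tested. Their mRNA was measured on 24 Agilent arrays with 1 dye in HepaRG, an established human liver tumour line whose progenitor cells can become hepatocyte-like or biliary-like. The 8 conditions had 3 arrays each. Cells were left untransfected, received 80 pmol of a negative control siRNA or of a siRNA against β-catenin, or were left untransfected and given 300 ng/ml of FZD8_CRD, a recombinant mouse protein made of the part of Frizzled-8 that binds Wnt ligands. Each of these 4 backgrounds was cultured for 72 h without Wnt3a and with 200 ng/ml of recombinant mouse Wnt3a. The protocol gives serum-free medium with BSA for these additions. The siRNA was delivered by electroporation of detached cells in suspension, so that siRNA and electroporation cannot be told apart in any comparison with untransfected cells. The siRNA protocol also has the cells seeded sparsely and detached days earlier. The methods describe a like step for cells given Wnt3a-conditioned medium, and whether the untransfected cells on these arrays went through it was not settled here. A single siRNA product against β-catenin is named in the labels.

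Hepatocyte identity rests on a small circuit of factors that bind each other's promoters. FOXA proteins open chromatin at liver genes, HNF4A and C/EBPα (CEBPA) drive plasma protein and metabolic genes, and HNF6 (ONECUT1) acts early, in the liver bud and in the bile duct. The nuclear receptors FXR (NR1H4), PXR (NR1I2) and CAR (NR1I3) control bile acid handling and drug metabolism. FXR and PXR are switched on by ligands, while CAR is also active without one. Wnt signals stabilise β-catenin, which then acts with TCF/LEF factors on target genes, and in the liver they pattern metabolic zones and maintain progenitors.

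Signals are given as log2 of a probe's intensity over the 75th percentile of its array, so that 0 is the level of that percentile and a difference of 1 is a doubling. They are compared between conditions for 1 probe only, never between genes. All 9 genes had a probe well above background on all 24 arrays. NR1I3 had a second probe, which was well above background on 1 array only and was not tested. The HNF4A probe is named for 1 of the transcripts of that gene, and whether it reads the others was not tested. Tests are limma's, two-sided, with p-values adjusted over all 24643 genes by the Benjamini-Hochberg method, and a gene is called where the adjusted p is under 0.05. With 3 arrays a condition, their number limits the precision. The replicates of a condition came, by the study's account, from independent cultures, and p-values measure the spread between them. In bulk RNA, fewer hepatocyte-like cells and less mRNA per cell cannot be told apart.

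CTNNB1, the β-catenin gene, checked the siRNA. Its mean signal was 3.86 ± 0.09 (SD, n = 3) with control siRNA and 0.85 ± 0.12 (n = 3) with β-catenin siRNA, and 4.002 ± 0.16 and 0.99 ± 0.21 when Wnt3a was added. It was 8.08-fold lower without Wnt3a (adjusted p = 8.14e-10) and 8.06-fold lower with it (adjusted p = 5.94e-10). The label of liver cells was borne out by ALB, ASGR1, APOA1, TTR and SERPINA1, which were well above background on all 24 arrays. Between 58.3% and 66.5% of spots per array were well above background. The 8 arrays of 1 replicate number shared a slide, and each condition kept its place on all 3 slides, so that place and condition cannot be told apart. A replicate number may also stand for 1 culture experiment, so that slide and culture experiment cannot be told apart either.

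On 6 of the 24 arrays the mean correlation was higher with another condition than with their own. The gap was widest for 1 of them. The third array labelled FZD8_CRD without Wnt3a correlated at 0.9861 and 0.9872 with the other arrays of its condition and at 0.9927 to 0.9966 with the arrays given FZD8_CRD and Wnt3a, over 26742 probes. Its mean was 0.9866 within its own condition and 0.9946 with the latter. The second untransfected array with Wnt3a averaged 0.9879 within its condition and 0.9926 with control siRNA and Wnt3a. The other 4 were the remaining untransfected arrays with Wnt3a, the third untransfected array and the third β-catenin siRNA array with Wnt3a. Each of the 24 arrays was left out in turn, and calls of the 9 genes that this changed are given with the comparisons below. For the calls of the 9 genes and of the gene lists in comparisons that use the third FZD8_CRD array, values without it are given as well.

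**Figure D1:**
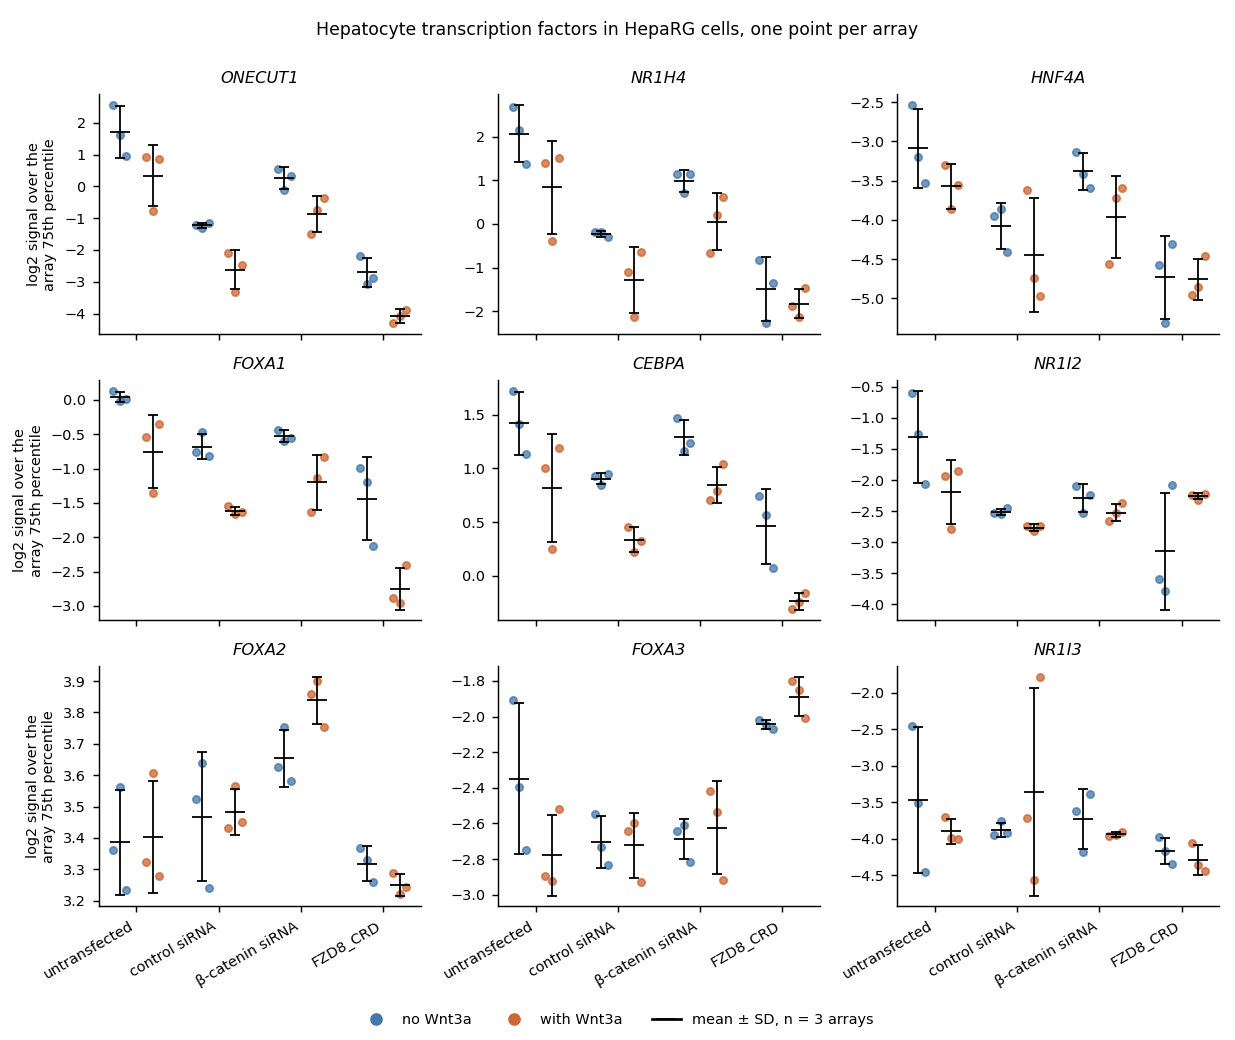
Log2 signal over the 75th percentile of the array for the 9 genes in the 4 backgrounds (x axis), without Wnt3a in blue and with Wnt3a in orange. Points are arrays, and bars are the mean ± SD of 3 arrays. ONECUT1 and NR1H4 span the widest range, from untransfected cells to cells with FZD8_CRD, while FOXA2 stays between 3.22 and 3.90 on all arrays.

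Across the 8 conditions, 6 of the 9 genes were highest in untransfected cells without Wnt3a, and 5 of those 6 were lowest in cells given FZD8_CRD and Wnt3a. ONECUT1 had the widest span, from 1.71 ± 0.81 (SD, n = 3) to -4.08 ± 0.22, a 55.5-fold difference. NR1H4 spanned 14.8-fold, FOXA1 6.91-fold, HNF4A 3.17-fold and CEBPA 3.15-fold between the same conditions. NR1I2 was also highest in untransfected cells and lowest with FZD8_CRD alone, 3.59-fold apart. FOXA2 (1.503-fold) and FOXA3 (1.86-fold) had narrow spans and another order. FOXA3 was highest in cells given FZD8_CRD and Wnt3a, the condition in which FOXA2 and NR1I3 were, like those 5 genes, lowest. These spans were picked as extremes and carry no test. Most neighbours in the order of condition means did not differ beyond the spread. For ONECUT1, the order ran from untransfected, untransfected with Wnt3a, β-catenin siRNA and β-catenin siRNA with Wnt3a down to control siRNA, control siRNA with Wnt3a, FZD8_CRD and FZD8_CRD with Wnt3a, and none of the 7 neighbouring pairs passed the threshold (adjusted p of 0.0527 to 0.939).

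FZD8_CRD was compared with untransfected cells that did not receive it. Without Wnt3a, 6 of the 9 genes were called lower and 0 higher, beside 19.3% of all tested genes called lower and 41.8% called in either direction. With Wnt3a, 5 were called lower and 1 higher, beside 16.9% and 20% of all genes and 36.9% in either direction. ONECUT1, NR1H4, HNF4A, FOXA1 and CEBPA were lower in both comparisons. The median change of the 9 genes was -1.48 and -1.05 on the log2 scale, and that of all genes was -0.03 and -0.04.

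ONECUT1 changed most. Its signal was 2.56, 1.63 and 0.94 on the untransfected arrays and -2.18, -3.05 and -2.88 on those with FZD8_CRD. With Wnt3a it was 0.91, -0.78 and 0.87 without FZD8_CRD and -4.31, -4.07 and -3.88 with it. The groups did not overlap in either case, and 21.2% and 21% of all genes measured on each array lay lower in this way. The difference was -4.41 ± 0.43 (SE), a 21.3-fold lower level, without Wnt3a (adjusted p = 3.8e-07) and -4.42 ± 0.43, 21.4-fold lower, with Wnt3a (adjusted p = 6.31e-07). Within the 3 slides the differences ran from -4.73 to -3.82 and from -5.22 to -3.29.

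NR1H4, the bile acid receptor FXR, followed. Untransfected arrays gave 2.68, 2.14 and 1.38, and those with FZD8_CRD gave -0.82, -2.27 and -1.36, again without overlap. NR1H4 fell by 3.55 ± 0.47 (SE), which is 11.7-fold, without Wnt3a (adjusted p = 7.22e-06). With Wnt3a the untransfected arrays read 1.404, -0.38 and 1.51 and the FZD8_CRD arrays -1.87, -2.13 and -1.46, a 6.34-fold lower level (adjusted p = 0.000199).

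FOXA1, a pioneer factor, was at 0.13, -0.02 and 0.02 in untransfected cells and at -0.997, -1.19 and -2.13 with FZD8_CRD, a 2.79-fold lower level (adjusted p = 0.000138). With Wnt3a on both sides it was 3.99-fold lower (adjusted p = 1.05e-05), from -0.55, -1.36 and -0.35 to -2.88, -2.96 and -2.40. CEBPA was 1.95-fold lower without Wnt3a (adjusted p = 0.000554) and 2.07-fold lower with it (adjusted p = 0.000315). HNF4A was 3.12-fold lower without Wnt3a (adjusted p = 0.000733), from -2.54, -3.20 and -3.54 to -4.57, -5.32 and -4.31. With Wnt3a HNF4A was 2.27-fold lower (adjusted p = 0.0107), a call that was lost without the first untransfected array with Wnt3a (adjusted p = 0.053), without replicate 1 (0.0637) or replicate 2 (0.0689) of every condition, and with normexp background correction (a difference of -0.36, adjusted p = 0.1). The HNF4A call without Wnt3a held under all 21 alternatives, over which the difference ran from -2.09 to -0.62. Leaving out the third FZD8_CRD array kept all 6 calls made without Wnt3a, with differences of -4.32 for ONECUT1, -3.62 for NR1H4, -2.38 for NR1I2, -1.85 for HNF4A, -1.13 for FOXA1 and -0.77 for CEBPA (adjusted p of 2.55e-06 to 0.00478).

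NR1I2, the drug sensor PXR, was called without Wnt3a and not with it. Without Wnt3a the signals were -0.59, -1.26 and -2.06 in untransfected cells and -3.58, -3.78 and -2.07 with FZD8_CRD. It was 3.59-fold lower (adjusted p = 3e-04), although the third untransfected and the third FZD8_CRD array differed by 0.01 only. Without replicate 1 of every condition the call was lost (-1.27, adjusted p = 0.0688). With Wnt3a the difference was -0.07, with a 95% confidence interval from -0.81 to 0.67 (adjusted p = 0.905). FOXA3 was called higher with Wnt3a on both sides, at -1.80, -1.85 and -2.01 with FZD8_CRD against -2.90, -2.92 and -2.52 without it. That is 1.86-fold (adjusted p = 0.000593), and the call was lost with the arrays scaled to the spike-in probes instead (adjusted p = 0.126) and without replicate 2 of every condition (0.0515). Without Wnt3a FOXA3 differed by 0.31 (adjusted p = 0.186), and by 0.53 without the first untransfected array (0.0207). FOXA2 differed by -0.07 without Wnt3a (95% interval -0.28 to 0.14) and by -0.15 with it (-0.36 to 0.06). The latter was called lower with quantile normalization (-0.24, adjusted p = 0.0438) and on the deposited log2 values (-0.24, 0.0472). NR1I3 was not called in either comparison (adjusted p = 0.274 and 0.576), and was called lower without Wnt3a when replicate 3 of every condition was left out (-1.09, adjusted p = 0.0237, beside -0.69 with all arrays).

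**Figure D2:**
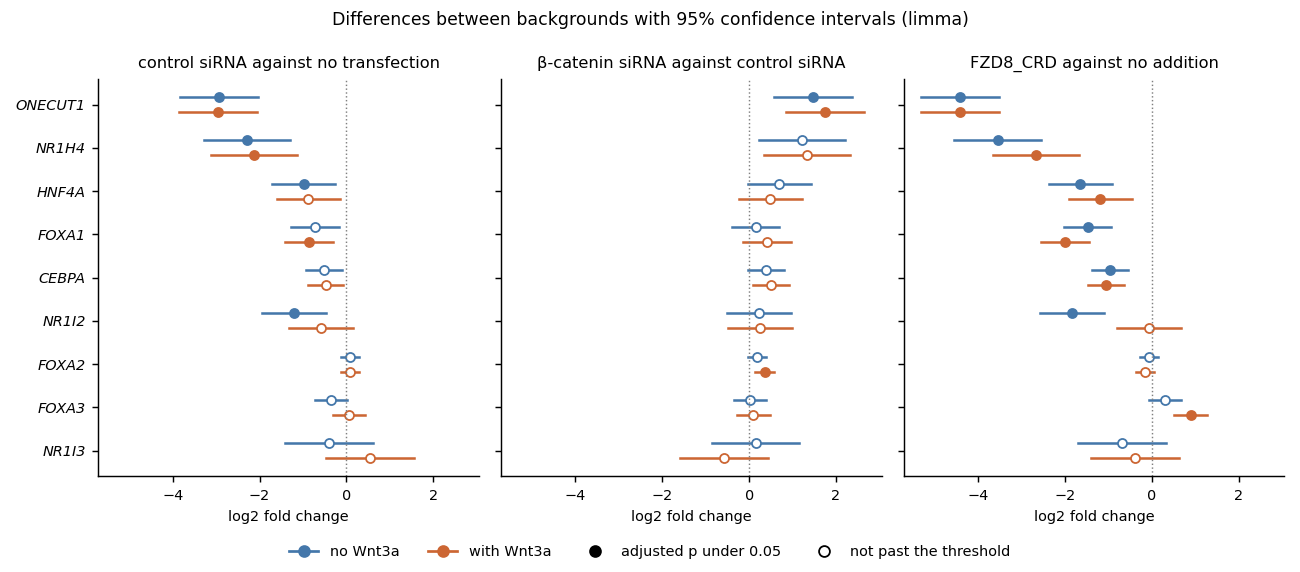
Log2 fold changes with 95% confidence intervals from limma for the 9 genes in 3 comparisons, without Wnt3a in blue and with Wnt3a in orange. Filled points have an adjusted p under 0.05. ONECUT1 lies furthest to the left with FZD8_CRD (-4.41 and -4.42) and with control siRNA (-2.93 and -2.95), and to the right of 0 with β-catenin siRNA (1.47 and 1.76). The FZD8_CRD and control siRNA panels share the untransfected arrays, and the 2 siRNA panels share the control siRNA arrays.

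The sequences before the transcription starts of the 5 genes that were lower in both FZD8_CRD comparisons are shown because these genes moved together. They are 250 bases each, read 5′ to 3′ on the gene's strand, from RefSeq's GRCh38.p14 table, which held 8 of the 9 genes and not FOXA2. The arrays themselves are annotated on hg19, and no array coordinates are given. HNF4A is listed with 2 starts. The start listed for NR1H4 lies inside the span of that gene, which begins at chr12:100473866, and the sequence before that position is not shown. Capitals mark exact matches, on either strand, to 6 short motifs. For TCF/LEF factors the letters CTTTGTT were searched, and as a second form of that motif the letters CTTTGAT. For FOXA factors they were TGTTTGC, for ONECUT factors they were ATTGAT, for HNF4 factors they were AAGTCCA, and for the TATA box they were TATAAA. Which start the transcript on the HNF4A probe or on the NR1H4 probe uses was not examined.
ONECUT1, chr15:52790337-52790586, minus strand: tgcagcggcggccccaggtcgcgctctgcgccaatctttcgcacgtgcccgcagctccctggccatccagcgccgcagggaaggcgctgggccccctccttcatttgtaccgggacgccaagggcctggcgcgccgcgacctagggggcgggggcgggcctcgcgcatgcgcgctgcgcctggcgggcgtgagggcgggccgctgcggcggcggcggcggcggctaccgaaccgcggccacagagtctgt
NR1H4, chr12:100503110-100503359, plus strand: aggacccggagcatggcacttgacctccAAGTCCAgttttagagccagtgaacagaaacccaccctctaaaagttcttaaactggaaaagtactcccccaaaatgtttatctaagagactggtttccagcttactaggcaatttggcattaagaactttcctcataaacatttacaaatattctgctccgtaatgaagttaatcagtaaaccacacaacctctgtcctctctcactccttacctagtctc
FOXA1, chr14:37595250-37595499, minus strand: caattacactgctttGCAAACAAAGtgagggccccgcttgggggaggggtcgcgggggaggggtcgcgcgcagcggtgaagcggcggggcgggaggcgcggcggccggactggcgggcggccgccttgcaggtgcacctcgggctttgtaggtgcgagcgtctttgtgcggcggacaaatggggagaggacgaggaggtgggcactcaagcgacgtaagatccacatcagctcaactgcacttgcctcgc
CEBPA, chr19:33302535-33302784, minus strand: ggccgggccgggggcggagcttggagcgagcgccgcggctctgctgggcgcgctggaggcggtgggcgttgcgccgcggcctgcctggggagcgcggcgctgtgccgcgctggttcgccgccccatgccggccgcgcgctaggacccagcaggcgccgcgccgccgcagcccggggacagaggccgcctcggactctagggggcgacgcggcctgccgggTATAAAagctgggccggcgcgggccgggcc
HNF4A, chr20:44355449-44355698, plus strand: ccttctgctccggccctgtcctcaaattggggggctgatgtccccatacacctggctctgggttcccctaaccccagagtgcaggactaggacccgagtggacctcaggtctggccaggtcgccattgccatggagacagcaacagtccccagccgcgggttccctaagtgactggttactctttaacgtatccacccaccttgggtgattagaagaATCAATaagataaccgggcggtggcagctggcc
HNF4A, chr20:44400989-44401238, plus strand: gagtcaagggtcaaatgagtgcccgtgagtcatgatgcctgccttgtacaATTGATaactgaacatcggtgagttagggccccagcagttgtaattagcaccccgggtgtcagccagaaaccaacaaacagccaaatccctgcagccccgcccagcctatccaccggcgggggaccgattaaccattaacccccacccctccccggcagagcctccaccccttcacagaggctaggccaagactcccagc

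Both HNF4A windows held the ONECUT letters, 33 to 28 bases before the upstream start as ATCAAT and 200 to 195 bases before the downstream start as ATTGAT. Those letters stand in 5.58% of all 35116 windows of this length. FOXA1 held the FOXA letters, as GCAAACA, 235 to 229 bases before its start (3.23% of windows), and there they overlap the TCF/LEF letters CTTTGTT, as AACAAAG (4.5% of windows). NR1H4 held AAGTCCA 222 to 216 bases before its listed start inside the gene (2.82%), and CEBPA a TATAAA 30 to 25 bases before its start (10.7%). CTTTGAT (2.26% of windows) matched none of the 5 genes, and ONECUT1 matched none of the letters searched. A match describes the letters and shows no binding.

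Control siRNA was compared with no transfection, which takes the negative control siRNA together with its delivery. These comparisons share the untransfected arrays with the FZD8_CRD comparisons. Without Wnt3a, 4 of the 9 genes were called lower and 0 higher, beside 9.56% of all genes called lower and 22.1% in either direction. ONECUT1 was at -1.21, -1.30 and -1.16 with control siRNA, all below the untransfected arrays, a 7.63-fold lower level (-2.93 ± 0.43 SE, adjusted p = 0.000187). NR1H4 was 4.89-fold lower, at -0.18, -0.18 and -0.30 (adjusted p = 0.00179). NR1I2 was 2.31-fold lower (adjusted p = 0.0179) and HNF4A 1.98-fold lower (adjusted p = 0.0466). FOXA1 and CEBPA differed by -0.72 (adjusted p = 0.0548) and -0.52 (adjusted p = 0.0668), with every control siRNA array below every untransfected one, as for 16.7% of all genes, and both were called with the slide as a block, which gave 6 calls among the 9 genes beside 31.8% of all genes. Within slides all of these 6 genes were lower on 3 of 3 slides.

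Some of these calls rested on single arrays. Without the third untransfected array CEBPA (-0.66, adjusted p = 0.0298) and FOXA3 (-0.55, 0.0285) were also called lower, beside 23.2% of all genes. HNF4A was lost without the first untransfected array (adjusted p = 0.244), the second untransfected array (0.076) or any control siRNA array (0.0796, 0.0648 and 0.168). Leaving out replicate 1, 2 or 3 of every condition lost it as well (0.211, 0.162 and 0.0811). NR1I2 was lost without the first untransfected array (adjusted p = 0.138) or the first or second control siRNA array (0.0507 and 0.0509). Leaving out replicate 1 (0.371) or replicate 2 (0.146) of every condition also lost NR1I2. ONECUT1 and NR1H4 kept their calls without any single array (adjusted p up to 0.00211 and 0.0171), while NR1H4 lost it without replicate 1 of every condition (adjusted p = 0.102).

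With Wnt3a on both sides, 3 genes were called lower and 0 higher after control siRNA, beside 3.41% of all genes called lower and 8.74% in either direction. ONECUT1 was at -2.10, -3.31 and -2.46 and was 7.75-fold lower (adjusted p = 0.00141). NR1H4 was 4.36-fold lower (adjusted p = 0.011), and FOXA1 1.82-fold lower (adjusted p = 0.045). The FOXA1 call was lost without any of 5 of the 6 arrays (adjusted p of 0.0696 to 0.211, the exception being the second untransfected array with Wnt3a). Leaving out replicate 1, 2 or 3 of every condition lost it too (0.352, 0.0841 and 0.113). The NR1H4 call was lost without the first untransfected array with Wnt3a (adjusted p = 0.0873) or the second control siRNA array with Wnt3a (0.0856), and without replicate 1 (0.205) or replicate 3 (0.057) of every condition. ONECUT1 kept its call without any single array but not without replicate 1 of every condition (0.0703). HNF4A was called without the first control siRNA array (-1.29, adjusted p = 0.0229) and CEBPA without the second untransfected array (-0.76, 0.00451), both with Wnt3a, beside 8.85% and 15.7% of all genes in these fits.

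β-catenin siRNA was compared with control siRNA, both transfected in the same way. With a single siRNA product against β-catenin, the loss of β-catenin and other effects of that siRNA cannot be told apart. The control siRNA arrays are those of the paragraphs above, so both comparisons share any error of these arrays, with opposite sign. Without Wnt3a all 9 genes had a higher mean with β-catenin siRNA, 1 was called higher and 0 lower, beside 4.81% of all genes called higher and 10% in either direction. That gene was ONECUT1, at 0.56, -0.12 and 0.32 against -1.21, -1.30 and -1.16, a 2.78-fold higher level (1.47 ± 0.43 SE, adjusted p = 0.0329). The call was lost without any of 5 of the 6 arrays (adjusted p of 0.0774 to 0.121), all but the second β-catenin siRNA array (0.0458). Scaling to the spike-in probes also lost it (adjusted p = 0.0569), as did leaving out replicate 1, 2 or 3 of every condition (0.195, 0.113 and 0.131). The differences within slides were 1.77, 1.18 and 1.48.

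With Wnt3a on both sides, 2 genes were called higher, beside 4.03% of all genes called higher and 10.1% in either direction. ONECUT1 read -1.49, -0.74 and -0.37 with β-catenin siRNA and -2.10, -3.31 and -2.46 with control siRNA, a 3.38-fold higher level (adjusted p = 0.0106). It lost the call without the second control siRNA array (adjusted p = 0.0728) or the third β-catenin siRNA array (0.0647), both with Wnt3a. Without replicate 2 (0.199) or replicate 3 (0.0972) of every condition the ONECUT1 call was lost too. FOXA2 was 1.28-fold higher (0.35 ± 0.10 SE, adjusted p = 0.0262), at 3.86, 3.90 and 3.76 against 3.43, 3.57 and 3.45. That call was lost with spike-in scaling (a difference of 0.14, adjusted p = 0.862) and without either the first or the third control siRNA array (0.0925 and 0.084) or the first or second β-catenin siRNA array (0.0728 and 0.109). Leaving out replicate 1 (0.361) or replicate 2 (0.0946) of every condition lost it as well. NR1H4 differed by 1.21 without Wnt3a (adjusted p = 0.121) and by 1.33 with it (adjusted p = 0.0843). The latter was called with the slide as a block, beside 15.2% of all genes, and without the first β-catenin siRNA array with Wnt3a (adjusted p = 0.0446), beside 8.94%. NR1H4 was higher on 3 of 3 slides in both cases.

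Wnt3a was compared with no Wnt3a in each of the 4 backgrounds, which share no arrays. In untransfected cells limma called 0 of the 9 genes, beside 5.04% of all genes. That count depended on the slides used. Without replicate 3 of every condition 6 were called lower, beside 24.6% of all genes. They were ONECUT1 (-2.03, adjusted p = 0.0205), NR1H4 (-1.90, 0.0315), NR1I2 (-1.43, 0.00358), FOXA1 (-1.01, 0.00896), CEBPA (-0.94, 0.00665) and FOXA3 (-0.76, 0.00509). Without replicate 1 or replicate 2 no member was called, and 0.0771% and 0.0446% of all genes were. With the slide as a block ONECUT1 (adjusted p = 0.0319) and CEBPA (0.045) were called lower, beside 10.7% of all genes called in either direction. Without the third untransfected array 4 genes were called lower, ONECUT1 (-1.76, adjusted p = 0.0185), NR1I2 (-1.26, 0.0283), FOXA3 (-0.63, 0.0283) and CEBPA (-0.75, 0.0294). Without the third untransfected array with Wnt3a 3 were called lower, ONECUT1 (-1.64, 0.0303), FOXA1 (-0.99, 0.0285) and CEBPA (-0.80, 0.0165). The shares of all genes called rose as well, to 11% and 12% in these fits. Other single arrays, left out, shrank the differences. ONECUT1 went from -1.38 to as little as -0.82, FOXA1 from -0.79 to -0.49 and CEBPA from -0.61 to -0.32 (adjusted p up to 0.468, 0.511 and 0.52). With control siRNA 0 of the 9 were called, beside 1.98% of all genes. With β-catenin siRNA 0 of the 9 were called, beside 0.0162% of all genes. With FZD8_CRD 2 genes were called lower, beside 4.22% of all genes called lower and 8.11% in either direction.

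FOXA1 was called in cells with FZD8_CRD, where it went from -0.997, -1.19 and -2.13 to -2.88, -2.96 and -2.40 with Wnt3a, a 2.48-fold lower level (adjusted p = 0.00509). CEBPA went from 0.74, 0.56 and 0.07 to -0.31, -0.25 and -0.16, 1.62-fold lower (adjusted p = 0.0333). Both calls turned on single arrays. FOXA1 lost its call without the first or second FZD8_CRD array (adjusted p = 0.06 and 0.051), and CEBPA without these (0.238 and 0.172) or any array with both additions (0.114, 0.0978 and 0.0676). Leaving out replicate 1 or replicate 2 of every condition lost both, FOXA1 (0.495 and 0.374) and CEBPA (0.687 and 0.457). Without the third FZD8_CRD array, the one that resembled the Wnt3a-treated arrays, FOXA1 differed by -1.65 (adjusted p = 5.86e-05), CEBPA by -0.89 (0.00323), ONECUT1 by -1.47 (0.0402) and NR1I2 by 1.43 (0.00159), which makes 3 genes lower and 1 higher, beside 20.4% of all genes called in either direction. With the slide as a block and all arrays, ONECUT1 was also called lower with FZD8_CRD (adjusted p = 0.026), beside 13.1% of all genes. It was likewise called with quantile normalization (0.0466), with probes well above background on all arrays only (0.0496) and on the deposited log2 values (0.0478), beside 7.9%, 8.95% and 9.2% of the genes tested there.

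**Figure D3:**
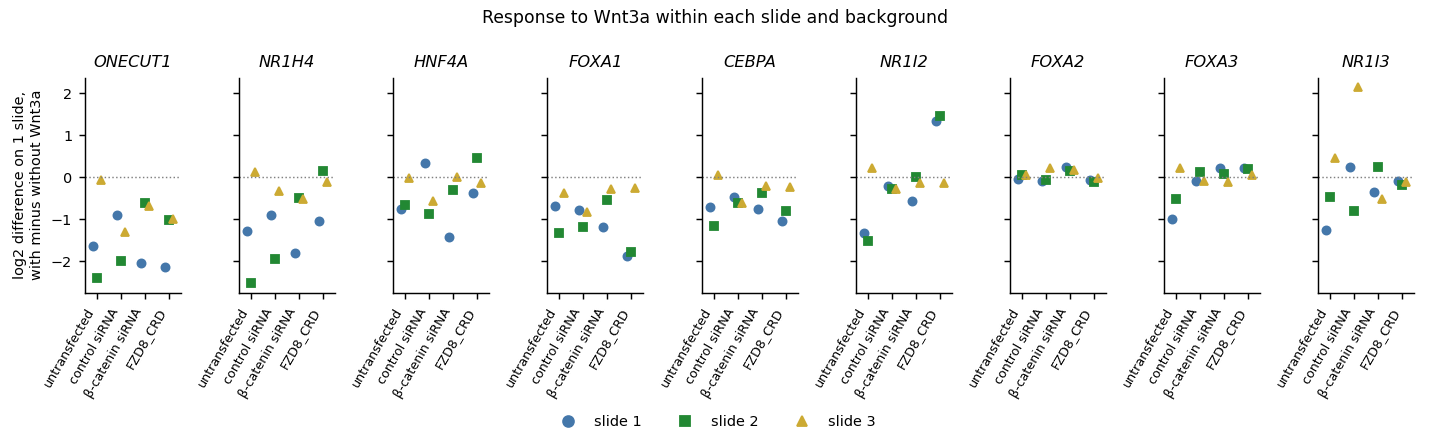
Log2 difference between the array with Wnt3a and the array without it on the same slide, for the 9 genes (panels) and the 4 backgrounds (x axis). Symbols mark the 3 slides, and the dotted line is 0. FOXA1 and ONECUT1 are below 0 in all 12 pairs. NR1I2 lies at 1.35 and 1.47 on slides 1 and 2 with FZD8_CRD and at -1.34 and -1.52 on the same slides in untransfected cells.

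ONECUT1 differed with Wnt3a by -1.38 in untransfected cells (adjusted p = 0.0683), -1.399 with control siRNA (0.101), -1.12 with β-catenin siRNA (0.367) and -1.38 with FZD8_CRD (0.0527). FOXA1 differed by -0.79 (0.0823), -0.94 (0.0699), -0.67 (0.375) and -1.31. On single slides both were lower with Wnt3a in 12 of 12 pairs, CEBPA in 11, and HNF4A and NR1H4 in 10. NR1I2 was lower in 9 pairs, NR1I3 in 8, FOXA2 in 6 and FOXA3 in 5. The share of all genes lower in as many pairs was not computed, and these counts carry no test.

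The mean of the 4 Wnt3a effects, a comparison added after the data were seen, called 4 of the 9 genes lower and 0 higher, beside 11.8% of all genes called lower and 21.1% in either direction. FOXA1 fell by 0.93 ± 0.13 (SE), 1.90-fold, with an adjusted p of 5.78e-05. ONECUT1 fell by 1.32 ± 0.22, 2.49-fold (adjusted p = 0.000195), and CEBPA by 0.58 ± 0.10, 1.49-fold (adjusted p = 0.000274). NR1H4 fell by 0.89 ± 0.24, 1.85-fold (adjusted p = 0.00998). No single array of the 24 ended any of these 4 calls, while NR1H4 lost its call without replicate 1 of every condition (adjusted p = 0.215) or without replicate 2 (0.0772). HNF4A differed by -0.36 (adjusted p = 0.154, and 0.038 without the first control siRNA array with Wnt3a), and FOXA2, FOXA3, NR1I2 and NR1I3 by -0.12 to 0.04 (adjusted p of 0.683 to 0.909).

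Whether β-catenin siRNA altered the Wnt3a response was tested as the difference between the Wnt3a effects with the 2 siRNAs. limma called 0 of the 9 genes, beside 0.0284% of all genes. For ONECUT1 the difference was 0.28 with a 95% interval from -0.99 to 1.55, and for FOXA1 0.27 with an interval from -0.51 to 1.04.

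The same test for FZD8_CRD called 0 of the 9 genes, beside 0.0609% of all genes. NR1I2 had the largest difference, 1.78 (adjusted p = 0.145). In untransfected cells Wnt3a was accompanied by a change of -0.88 (adjusted p = 0.151), and with FZD8_CRD by a change of 0.89 (adjusted p = 0.139). The difference passed the threshold without the third FZD8_CRD array (2.31, adjusted p = 0.00112, beside 8.08% of all genes) and without the third untransfected array (adjusted p = 0.0298, beside 2.15%), and 10 other arrays left it above the threshold. FOXA3 had a difference of 0.59 (adjusted p = 0.334). Without replicate 3 of every condition both genes were called, NR1I2 at 2.84 (adjusted p = 0.00104) and FOXA3 at 0.97 (0.0158), beside 11.7% of all genes. For ONECUT1 the difference was -0.01, with an interval from -1.28 to 1.26, and -0.09 without the third FZD8_CRD array, with an interval from -1.48 to 1.29.

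The other liver transcription factors served as a comparison, 28 genes picked, like the lists below, with earlier results of these data known. With FZD8_CRD, 16 of 28 were called lower and 2 higher without Wnt3a, and 15 lower and 1 higher with it. Of all genes, 19.3% and 16.9% were called lower there, and 41.8% and 36.9% in either direction. Leaving out the third FZD8_CRD array gave 16 lower and 3 higher without Wnt3a, with all 18 calls kept. Among the lower ones without Wnt3a were MLXIPL, the carbohydrate-responsive factor ChREBP (-2.66, adjusted p = 1.05e-06), HLF (-1.66), CREB3L3 (-1.72), PROX1 (-2.78), which marks hepatoblasts, and NR1H3 (-0.93), the oxysterol receptor LXRα. With control siRNA, 9 were called lower and 2 higher without Wnt3a, among them NR2F1 (-0.66), GATA6 (-0.66), HHEX (-1.17), PROX1 (-2.44) and NR5A2 (-1.35). With Wnt3a on both sides control siRNA called 8 lower and 0 higher. Of all genes, 22.1% and 8.74% were called in either direction in these comparisons. β-catenin siRNA against control siRNA called 5 higher and 0 lower, namely HLF (1.02), GATA6 (0.50), RXRA (0.32), PROX1 (1.399) and NR2F2 (0.35). With Wnt3a on both sides it called 2 higher and 1 lower, NR2F2 (0.55), NR3C1 (0.29) and NR2F1 (-0.59). These counts stand beside 10% and 10.1% of all genes called in either direction. Wnt3a in untransfected cells called 3 lower, NR5A2 (-1.29), RXRA (-0.43) and PPARA (-0.55), beside 5.04% of all genes. With control siRNA Wnt3a called 1 higher and 0 lower, and with β-catenin siRNA 0, beside 1.98% and 0.0162%. With FZD8_CRD it called 5 lower and 1 higher (8.11% of all genes), and 9 lower and 1 higher without the third FZD8_CRD array. The fit without that array called a larger share of all genes, given above. The mean Wnt3a effect called 15 lower and 1 higher (21.1% of all genes).

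Target genes of the 9 factors were read as 3 lists. Of 13 tested targets of HNF4A, FOXA and C/EBP factors, 12 were called lower with FZD8_CRD and 11 with control siRNA, both without Wnt3a, with list medians of -2.27 and -1.89 beside medians of all genes of -0.03 and -0.02. They include ALB, the gene of albumin (-1.75 and -1.64), FGB, of fibrinogen (-2.27 and -1.89), and TDO2, which breaks down tryptophan (-3.81 and -2.89). Without the third FZD8_CRD array the same 12 were called lower, with a list median of -1.96. With Wnt3a on both sides the counts were 7 and 9 lower. Of all genes, 19.3% and 9.56% were called lower without Wnt3a, and 16.9% and 3.41% with it. TAT, an enzyme of tyrosine breakdown named here after its values were seen, was the 1 target not called with FZD8_CRD (-0.16). Wnt3a with FZD8_CRD called TTR (2.59) and APOA1 (2.19) higher and APOB (-2.18) lower, and the third FZD8_CRD array lay apart from the other 2 for TTR and APOA1, whose SDs in that condition were 2.14 and 1.75. Without that array these differences were 3.83 for TTR, 3.19 for APOA1 and -2.84 for APOB (adjusted p of 5.06e-06 to 0.000189), and 4 targets were called higher and 2 lower in place of 2 and 1. Of all genes, 8.11% were called in either direction with all arrays, and the larger share without that array is given above, so that the rise is not particular to the targets.

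All 7 tested PXR and CAR targets, of 8 listed, were called lower with FZD8_CRD and with control siRNA, both without Wnt3a. Of all genes, 19.3% and 9.56% were called lower there. Those 7 calls, and the 5 of the FXR targets below, were kept without the third FZD8_CRD array. CYP2B6, a CAR target, differed by -2.80 and -2.03 on the log2 scale, and CYP3A5 by -2.27 and -1.39. CYP3A4, CYP3A5 and CYP3A7 are close relatives, and whether their probes read each other was not tested. β-catenin siRNA called CYP2C8 higher than control siRNA without Wnt3a (2.58, adjusted p = 0.0213). With Wnt3a CYP2C8 stayed under the background limit on all 3 control siRNA arrays, and it was at least 9.95-fold higher with β-catenin siRNA (adjusted p = 0.00291). CYP2C8 passed the filter through conditions in which it was brighter, so that here it could only be called higher. Of 8 listed FXR targets 5 were tested. Without Wnt3a 5 were called lower with FZD8_CRD and 3 with control siRNA, beside 19.3% and 9.56% of all genes called lower. Whether FXR raises or lowers each target was not taken into account, so that a lower target need not go with less FXR. ABCB4, the canalicular phospholipid pump, differed by -1.27 and -1.08. CYP7A1, the rate-limiting enzyme of bile acid synthesis, stayed under the background limit on each array of both conditions and was at least 4.18-fold and 4.1-fold lower than in untransfected cells (adjusted p = 0.00388 and 0.00828). CYP7A1, and NR0B2 with FZD8_CRD, passed the filter through other conditions, so that here they could only be called lower. With Wnt3a on both sides FZD8_CRD called 2 FXR targets lower and 0 higher, and control siRNA 1 lower and 1 higher. Of all genes, 36.9% and 8.74% were called in either direction there. SLC51B, a bile acid exporter, was lower with β-catenin siRNA than with control siRNA (-1.68 and -2.81, without and with Wnt3a), and 1 of the 3 β-catenin siRNA arrays with Wnt3a had it well above background.

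**Figure D4:**
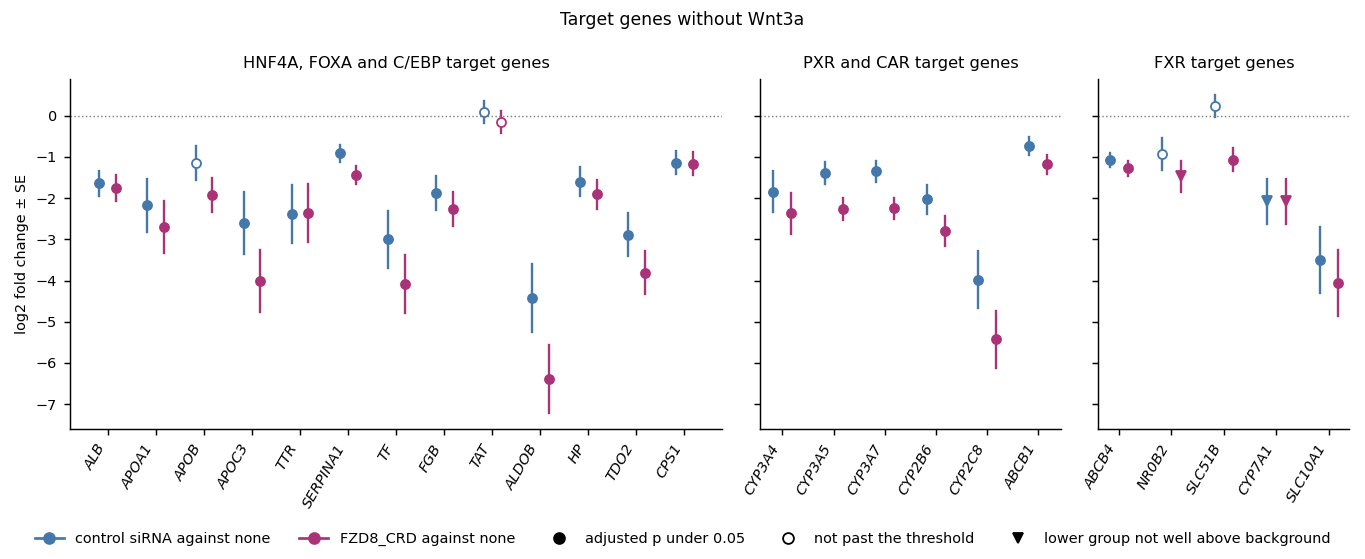
Log2 fold changes ± SE of target genes against untransfected cells without Wnt3a, for control siRNA in blue and FZD8_CRD in purple. Filled symbols have an adjusted p under 0.05, and triangles mark genes whose lower group was at background on every array. Both comparisons share the untransfected arrays, and TAT is the gene nearest 0 in both colours in the left panel (0.09 and -0.16).

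Markers of other cell types moved with some of these groups, and their part in the results was not tested. Of 4 tested mesenchymal markers, FZD8_CRD called 2 higher and 1 lower without Wnt3a and 3 higher and 1 lower with it, with VIM at -0.29 ± 0.45 (SD, n = 3) and 0.44 ± 0.05 against -1.59 ± 0.19 and -1.27 ± 0.18 in untransfected cells. The lower one was FN1, the gene of fibronectin (-0.93 without and -0.89 with Wnt3a), the higher ones were VIM (1.31 and 1.70) and the smooth muscle actin gene ACTA2 (0.36 and 0.29), and COL1A1 was called with Wnt3a only (0.88, and 0.11 without Wnt3a, adjusted p = 0.825). Without the third FZD8_CRD array these calls without Wnt3a were kept, VIM at 1.06, ACTA2 at 0.38 and FN1 at -1.18. With all arrays, FZD8_CRD called 41.8% of all genes in either direction without Wnt3a and 36.9% with it. Wnt3a called COL1A1 higher in untransfected cells (1.86), with control siRNA (2.18) and with FZD8_CRD (2.63), and of these 4 markers 3, 2 and 4 were called higher, the last count being 4 without the third FZD8_CRD array too. Of all genes, 5.04%, 1.98% and 8.11% were called in either direction in these 3 comparisons. Control siRNA without Wnt3a called 1 of the 4, VIM (0.78), and β-catenin siRNA called VIM lower than control siRNA (-0.85), beside 22.1% and 10% of all genes called in either direction. With Wnt3a on both sides β-catenin siRNA called 3 of the 4 lower than control siRNA, COL1A1 (-1.46), FN1 (-1.03) and VIM (-0.83), and all 4 had a lower mean, with a list median of -0.93 beside -0.01 for all genes. Of all genes, 10.1% were called in either direction there. The defining markers COL1A1, ACTA2, VIM and FN1 were well above background on all 24 arrays, and THY1 was not tested. Of the biliary markers, KRT19 was called higher with FZD8_CRD (0.42 without and 0.63 with Wnt3a), SOX9 was called lower (-0.48 and -0.72) and KRT7 was not called. Without the third FZD8_CRD array and without Wnt3a, KRT19 kept its call (0.30, adjusted p = 0.0219) and SOX9 lost it (-0.26, adjusted p = 0.251).

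Over the 24 arrays, HNF4A, FOXA1, CEBPA, NR1H4 and ONECUT1 correlated with each other at 0.75 to 0.97 (Pearson, 10 pairs), and NR1H4 with ONECUT1 at 0.97. FOXA1 and CEBPA correlated at 0.95. FOXA3 correlated with ONECUT1 at -0.42 and FOXA2 at 0.24. These values describe arrays that share conditions and slides, and no test was made. Of all genes with a symbol, those with the highest correlation over the 24 arrays included HAO2 and KCNJ16 for ONECUT1 (0.986 and 0.985), GJB1, ERBB3 and SMLR1 for NR1H4 (0.985 to 0.989), GOLT1A, NDRG2 and MAOA for FOXA1 (0.977 to 0.989), and ALDH1L1, FAXDC2 and TMT1A for CEBPA (0.976 to 0.978). CYP3A7, C1orf115 and PGPEP1 were nearest to HNF4A (0.921 to 0.928), and AGMO, TM4SF5 and APOC3 to NR1I2 (0.961 to 0.965). For FOXA2 they were PTCHD4, ZCCHC3 and SMARCC2 (0.875 to 0.891), for FOXA3 FNDC5, SELENOF and IL15RA (0.874 to 0.887), and for NR1I3 HSPB9, LINC00598 and RHBG (0.777 to 0.830).

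NR1I3 and NR1H4 had the same pooled SD within conditions, 0.64. For NR1I3 the SD was 1.42 with control siRNA and Wnt3a and 1.00 in untransfected cells without Wnt3a, but 0.03 with β-catenin siRNA and Wnt3a. Its signals were -2.46, -3.51 and -4.46 in untransfected cells without Wnt3a, the widest spread of any member in that condition, and -3.71, -4.57 and -1.79 with control siRNA and Wnt3a. limma called it in 0 of the 12 planned comparisons, and its unadjusted p was under 0.05 in 0 of them. Its interval for FZD8_CRD without Wnt3a ran from -1.70 to 0.32, which holds both 0 and the change of FOXA1 in that comparison.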

How the data were processed

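Total RNA was labelled with Cy3 and hybridised to 24 arrays. The deposited intensity values are spot signals that the authors read with Agilent Feature Extraction (10.7.3.1 in the submitters' processing notes, 10.7.1.1 in the file headers), which subtracted background and detrended each array, and the headers name hg19. Its marks of outlier, saturated and well-above-background spots were used as deposited. The authors also deposited a table of log2 values, scaled and centred per probe, used as an alternative only. Its column medians ran from -0.0502 to 0.019 and its correlation with the centred scanner values from 0.923 to 0.992.

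Each array was divided by its 75th percentile and floored at 1.97374% of it, and spots marked as outliers were dropped. A probe was kept where every 1 of the 3 arrays of some condition had it well above background (31061 probes), and the brightest stood for its gene. limma 3.58.1 in R 4.3.3 (eBayes with trend) fitted all 24 arrays with 1 mean per condition, and p-values were Benjamini-Hochberg adjusted over 24643 genes. The fit was tested on simulated data. Tables and figures were made with Python 3.11.15, pandas 2.3.3, numpy 2.4.6 and matplotlib 3.10.9. Arrays of 1 replicate number share a slide, as the labels and file headers show, and deviated together (82 of 84 pairs with a correlation above 0.1, mean 0.38). Whether slide or culture experiment lay behind this was not tested, and the slide as a block takes both together. The alternatives were other scalings, background corrections, filters, probe rules and call rules, the slide as a block, a fit to the compared conditions alone, the authors' values and leaving out arrays. The members and the gene lists were chosen with earlier results of these data known. Named genes were the members, CTNNB1, up to 6 called genes per list by smallest p, and for each member the 3 genes with the highest correlation. Some genes that these rules name are not reported here, and stay in the counts.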

Additional observations from a re-analysis of the deposited data

How the results depend on the processing

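None of the 24 calls of a member in a planned comparison changed direction over 504 alternative values, and 80 of these values were not called. The 4 calls of the mean Wnt3a effect are not among these. They kept their direction under 39 alternatives each, and NR1H4 was not called in 2 of them. Scaling to the 7 spike-in probes moved the median of all genes by -0.44 with FZD8_CRD, -0.29 with control siRNA and -0.39 with Wnt3a in untransfected cells, all without the other additions, and changes there are relative to it. With that scaling the number of called members became 2 in place of 0 for Wnt3a in untransfected cells, 1 in place of 2 for Wnt3a with FZD8_CRD, and 0 in place of 1 and 1 in place of 2 for β-catenin against control siRNA without and with Wnt3a, while 1.19%, 1.01%, 0.734% and 2.65% of all genes were called. Normexp background correction gave 2 for Wnt3a in untransfected cells (4.37% of all genes). Without a filter on dim probes the count was 1 for Wnt3a with FZD8_CRD (3.2% of all genes) and 0 for β-catenin against control siRNA without Wnt3a (4.91%). Fitting only the conditions compared gave 2 for Wnt3a with control siRNA (5.3% of all genes), 0 for Wnt3a with FZD8_CRD, 0 for control siRNA against none with Wnt3a (3 before) and 3 for β-catenin against control siRNA without Wnt3a (17.3%). In the comparisons with 0 members, 0 and 1 of all 24643 genes were called, so that these losses are not particular to the members. Calling at a fold above 1.5 or below 0.7 and an unadjusted p under 0.01 gave 3 for Wnt3a in untransfected cells, 3 with control siRNA, 3 with FZD8_CRD, 1 for β-catenin against control siRNA with Wnt3a and 1 for the difference of the Wnt3a effects with FZD8_CRD, beside 4.5%, 2.77%, 5.83%, 6.45% and 3% of all genes. With the slide as a replicate block the count was 2 for Wnt3a in untransfected cells (ONECUT1 and CEBPA), beside 10.7% of all genes. On the deposited log2 values, which hold 8 of the 9 members, the counts were within 1 of the main ones in all 13 comparisons, with ONECUT1 gained for Wnt3a with FZD8_CRD, FOXA2 for FZD8_CRD with Wnt3a and HNF4A for the mean Wnt3a effect. Within counts that moved less, spike-in scaling ended the calls of FOXA1 for control siRNA against none with Wnt3a (-0.60, adjusted p = 0.471) and of FOXA3 for FZD8_CRD with Wnt3a (0.77, adjusted p = 0.126). HNF4A for control siRNA against none without Wnt3a was not called with quantile normalization (-0.90, adjusted p = 0.0519), normexp (-0.40, 0.0991), no filter on dim probes (0.0992) or only the conditions compared (0.0719). FOXA1 for control siRNA against none with Wnt3a was not called without a dim-probe filter (0.102), nor NR1I2 without Wnt3a with only the conditions compared (0.0678). HNF4A for FZD8_CRD with Wnt3a was not called with normexp (-0.36, 0.1). The cause of these changes was not tested.

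Leaving out arrays moved the counts from 0 to 6 for Wnt3a in untransfected cells, 0 to 1 with control siRNA, 0 to 0 with β-catenin siRNA and 0 to 4 with FZD8_CRD, while the shares of all genes called ran from 0.0446% to 24.6%, 0.0243% to 2.21%, 0% to 0.422% and 0% to 21.6%. They ran from 1 to 6 and 0 to 4 for control siRNA against none without and with Wnt3a, from 0 to 1 and 0 to 2 for β-catenin against control siRNA, and from 5 to 7 and 4 to 6 for FZD8_CRD against none, with shares of 1.58% to 27.2%, 0.00406% to 15.7%, 1.74% to 9.04%, 2.26% to 10.2%, 25.2% to 45.2% and 16.5% to 40.8% in the same order. For the differences of Wnt3a effects they ran from 0 to 0 with β-catenin siRNA and from 0 to 2 with FZD8_CRD, and for the mean Wnt3a effect from 3 to 5, with shares of 0% to 0.0162%, 0% to 11.7% and 5.02% to 32.5%. Leaving out a replicate number leaves 2 arrays a condition.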
